A study of Mus musculus with 12 samples.

Results

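A set of 406 distal regions of the mouse gastrula carried H3K27ac at 2 or more of 5 stages and no H3K4me1 at any of 6 stages. Peaks of H3K27ac were merged over the stages ES, MS, LS, OB and EHF, which gave 50341 regions. Of these, 35207 were distal, lying over 1 kb from both outer ends of every one of 21631 protein-coding genes, and 23917 of the distal regions held a peak in at least 2 of the 5 lists and are called recurrent. The set of 406 is made of the recurrent distal regions that no H3K4me1 peak of the 6 stages overlapped by 1 bp or more. They made up 1.7% of the recurrent distal regions, and the other 23511 carried H3K4me1 at 1 or more stages. The regions were thus selected on called peaks of both marks. Absence of H3K4me1 means here that no peak was called. Since H3K4me1 and H3K27ac of the 5 stages chose the regions, their values for these marks are given as a description, and H3K27ac at Pre_PS is the readout of H3K27ac that the choice did not use.

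The study profiled both marks in dissociated cells of C57BL/6 mouse embryos staged by morphology. Pre_PS embryos had no primitive streak and were dissected at E6.0, ES embryos (early streak) at E6.0 and E6.5, MS embryos (mid streak) at E6.0 and E7.0, LS embryos (late streak) at E7.0 and E7.25, OB embryos (no allantoic bud) at E7.25 and E7.5, and EHF embryos (early head fold) at E7.5. No genetic change or treatment is named in the labels, and the protocols state that extraembryonic tissue was cut away up to the LS stage but not whether this was done for OB and EHF. Each stage and mark had 1 library, in which the cells of all tissues were pooled, so no difference between stages or regions has a replicate check and no test was made.

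H3K27ac, acetylation of lysine on histone H3, is laid down by p300 and CBP and marks active promoters and enhancers. H3K4me1, methylation at another lysine of the same histone, is written by MLL3 and MLL4 and marks enhancers, both active ones and those that are primed before they gain acetylation. Distal H3K27ac together with H3K4me1 is the usual signature of an active enhancer, and during gastrulation such enhancers drive the genes of the streak, the mesoderm, the endoderm and the ectoderm. CoBATCH reads a mark by tethering the Tn5 transposase to the antibody, so that DNA next to marked histones is tagged and sequenced.

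Although all 406 regions lay over 1 kb from the outer ends of protein-coding genes, a few lay near other annotated transcript starts, and the sequences of the nearest 2 such starts are shown because they are what is annotated beside these regions. On the chromosomes that have promoter windows in the RefSeq table used, 4 of 394 regions without H3K4me1 (1.02%) had a RefSeq transcript start within 1 kb, against 9.75% of the other recurrent distal regions. Among regions with a peak in exactly 2 lists, the shares were 1.19% without and 3.04% with H3K4me1. The windows below hold 250 bases before and 50 bases after a transcript start, from RefSeq in the build GRCm38.p6, the assembly that mm10 names. The first is the start of the lncRNA gene Gm16158 (chr7:68353170-68353469, minus strand), 142 bp from the region chr7:68353362-68353713, which lies inside Fam169b and overlaps the window. Its capitals mark CACGTG, the E-box bound by factors of the MYC and USF families. This stretch lies near the transcript start, in the part of the window that the region does not overlap. The second is an inner start of Ctdsp2, which encodes a phosphatase of the RNA polymerase II tail (chr10:126995363-126995662, plus strand), 131 bp from the region chr10:126995745-126996353. Its capitals mark the mature miR-26a-5p, made from the hairpin of Mir26a-2, which lies inside Ctdsp2. The annotated inner start of Ctdsp2 is at the same base as the 3′ end of that hairpin (position 126995613), and the window does not overlap the region, which begins 82 bp beyond it. The third line is that mature miRNA, at chr10:126995543-126995564, with its seed (bases 2 to 8) in capitals.
Gm16158 start: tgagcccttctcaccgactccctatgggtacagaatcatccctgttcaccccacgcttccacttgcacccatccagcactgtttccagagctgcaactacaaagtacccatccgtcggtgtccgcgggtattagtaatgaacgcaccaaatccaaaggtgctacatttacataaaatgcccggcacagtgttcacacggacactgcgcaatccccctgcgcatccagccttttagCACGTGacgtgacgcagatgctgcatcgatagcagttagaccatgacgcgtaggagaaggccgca
Ctdsp2 inner start: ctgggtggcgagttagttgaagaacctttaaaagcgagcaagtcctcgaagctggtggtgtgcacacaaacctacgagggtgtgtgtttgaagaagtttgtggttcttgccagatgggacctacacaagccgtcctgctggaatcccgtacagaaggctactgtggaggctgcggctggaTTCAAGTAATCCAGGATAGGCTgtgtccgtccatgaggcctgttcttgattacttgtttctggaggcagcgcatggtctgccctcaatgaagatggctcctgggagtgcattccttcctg
mmu-miR-26a-5p: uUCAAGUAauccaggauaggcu

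The region at Gm16158 was called at LS, with a fold of 3.49, and at OB, with a fold of 4.0. Fold is the authors' ratio of fragment pileup to local background for each peak, with 1 added to both, as read from the weakest peaks. With backgrounds below 1, folds therefore also depend on the depth of a library. The region at the inner start of Ctdsp2 was called at ES, with a fold of 3.68, and at LS, with a fold of 3.01, the lowest fold in the LS list. Both were therefore low within their lists, at rank percentiles of at most 13.8, where 100 is the highest −log10 q of a list. The region near 2 starts of the lncRNA gene Gm35650 (682 bp and 924 bp away) and the one near the start of Krt14, a keratin of basal epidermis (723 bp away), were low as well, at percentiles of at most 6.85. Of 12 short motifs searched on both strands in the 5 windows of starts within 1 kb of these regions, CACGTG occurred in 1 window, and it occurs in 7.20% of all 32619 windows. The other 11 had no match in these 5 windows, from which nothing is read, since 5 windows are few against their shares of all windows. They were the CCAAT box CCAAT (37.6% of all windows), the GC box GGGCGG (35.9%), the TATA box TATAAA (13.7%), the AP-1 motif TGANTCA (7.85%), the CTCF core AGNNGGCGC (7.28%), the ETS motif CCGGAAGT (3.91%), the NRF1 motif GCATGCGC (2.72%), the POU octamer ATTTGCAT (1.75%), the YY1 motif AAGATGGCG (1.40%), the B box GTTCGANNC of tRNA genes (0.849%) and the ZNF143 motif ACTACAATT (0.395%). A further region, inside Igf2bp1, which encodes an RNA-binding protein of embryonic cells, lay 484 bp from the hairpin of Mir3063 (chr11:95962304-95962807).

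The libraries differed in depth. The local background at the weakest peaks, a measure of fragments per library, ran from 0.211 at MS to 0.330 at LS among the 5 H3K27ac libraries that chose the regions, and was 0.0499 at Pre_PS. In H3K4me1 it ran from 0.164 at MS to 0.347 at LS, and was 0.0144 at Pre_PS, where 67.3% of the peaks had the list's lowest fold and p. The pileup at the weakest peaks was 3 fragments in each of the 5 H3K27ac lists and 2 at Pre_PS. In H3K4me1 it was 1 fragment at Pre_PS, 2 at ES and MS, and 3 at LS, OB and EHF. Low folds thus stand for few fragments, and any H3K4me1 peak, also a weakest one, left a region out. The H3K4me1 lists held 35646 to 47849 peaks. A region with H3K4me1 below what these libraries could call counts here as one without it, and the part of depth in the results below was not tested. The count of 406 was 216 without the H3K27ac library of ES and 230 without that of LS, and it was 682 and 676 without the H3K4me1 libraries of ES and OB.

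The regions without H3K4me1 were those that few lists held. None of the 9636 distal regions called in all 5 H3K27ac lists lacked H3K4me1, which puts the 95% Wilson upper limit of the share at 0.0398%. The share was 0.223% of the 4041 regions in 4 lists (9 regions, 0.117% to 0.423%), 1.17% of the 4369 in 3 lists (51 regions, 0.889% to 1.53%) and 5.89% of the 5871 in 2 lists (346 regions, 5.32% to 6.53%). Among the 11290 distal regions called in 1 list, which are outside the set, 2755 lacked H3K4me1, or 24.4% (23.6% to 25.2%). Thus 85.2% of the regions without H3K4me1 were in 2 lists, 12.6% in 3, 2.22% in 4 and 0 of 406 in 5 (Wilson upper limit 0.937%), against 23.5%, 18.4%, 17.1% and 41.0% of the other recurrent distal regions. These intervals, and all those below, cover counting error only, and regions of a library are not replicates of its stage.

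The share without H3K4me1 was also lower the higher the peaks ranked. For each region the rank percentile was averaged over the lists that held it. The share was 8.74% of the 1820 recurrent distal regions with a mean percentile up to 10, 2.80% of the 7441 from 10 to 25, 0.396% of the 9589 from 25 to 50, 0.0275% of the 3635 from 50 to 75 (1 region), and 0 of the 1432 above 75 (Wilson upper limit 0.268%). Within the regions in 2 lists it was 11.8% up to percentile 10, 5.52% from 10 to 25, and 2.04% from 25 to 50, and 1 of the 17 regions from 50 to 75. The median mean percentile was 11.9 in the regions without H3K4me1, with a highest value of 54.2, and 30.7 in the other recurrent distal regions. With both groups held to 2 lists it was 11.5 without and 18.5 with H3K4me1.

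**Figure D1:**
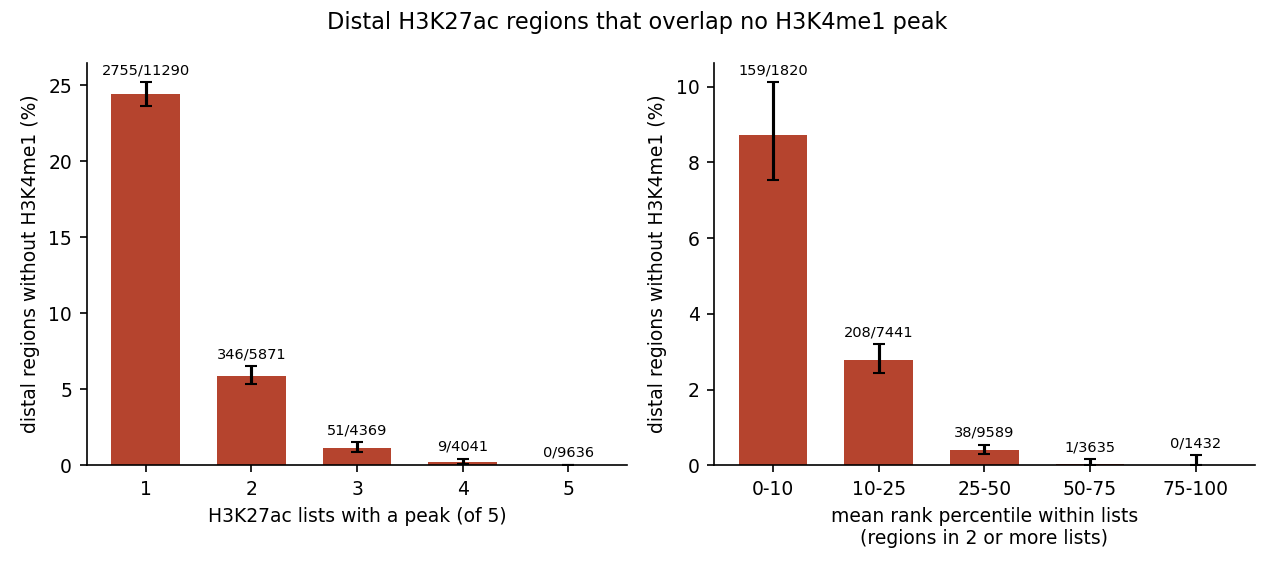
Share of distal H3K27ac regions without H3K4me1 in any of 6 lists (y axis, percent, with 95% Wilson intervals) by the number of H3K27ac lists that hold the region and by its mean rank percentile. The share was 24.4% of regions in 1 list and 5.89% of those in 2, with 0 of 9636 in 5.

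At each of the 5 stages the peaks in regions without H3K4me1 had a lower median fold than those in the other recurrent distal regions, also when both were held to 2 lists. A peak was present in 239 of the 406 at ES (58.9%), 149 at MS (36.7%), 222 at LS (54.7%), 169 at OB (41.6%) and 102 at EHF (25.1%). In the other recurrent distal regions the shares were 79.9%, 62.9%, 87.0%, 75.8% and 70.0% in the same order of stages. Held to 2 lists, the shares were 55.2% without and 49.8% with H3K4me1 at ES, 34.4% without and 22.3% with it at MS, 50.6% without and 61.1% with it at LS, 37.9% without and 37.3% with it at OB, and 22.0% without and 29.4% with it at EHF. The order was thus not the same at all stages once the number of lists was matched. The median fold of the peaks in regions without H3K4me1 was 3.81 (ES), 3.79 (MS), 3.62 (LS), 3.76 (OB) and 3.48 (EHF), against 5.26, 5.28, 5.53, 5.39 and 5.23 in the other recurrent distal regions. In 2-list regions it was 3.76, 3.77, 3.59, 3.73 and 3.48 without H3K4me1, against 4.13, 4.05, 4.04, 4.10 and 3.91 with it, in the same order. Peaks with a list's lowest fold and p made up 13.0% (ES), 23.5% (MS), 14.9% (LS), 15.4% (OB) and 32.4% (EHF) of those in regions without H3K4me1. In the other recurrent distal regions they made up between 2.10% and 2.97% at these stages. In 2-list regions they made up between 13.6% and 34.2% without H3K4me1 and between 6.68% and 10.6% with it. In the upper 50 percent of their list stood 6 peaks of regions without H3K4me1 at ES (2.51%) and 2 at MS (1.34%), against 34.5% and 28.4% in the other recurrent distal regions. At LS, OB and EHF 1, 0 and 0 peaks of regions without H3K4me1 stood there, against 35.6%, 31.9% and 30.2% in the others. In 2-list regions these shares were 2.62% at ES and 0.840% at MS without H3K4me1, close to the 2.69% and 0.568% with it. At LS, OB and EHF they were 0 of 175, 0 of 131 and 0 of 76 without H3K4me1. With it they were 2.40%, 0.873% and 0.615% at these stages.

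**Figure D2:**
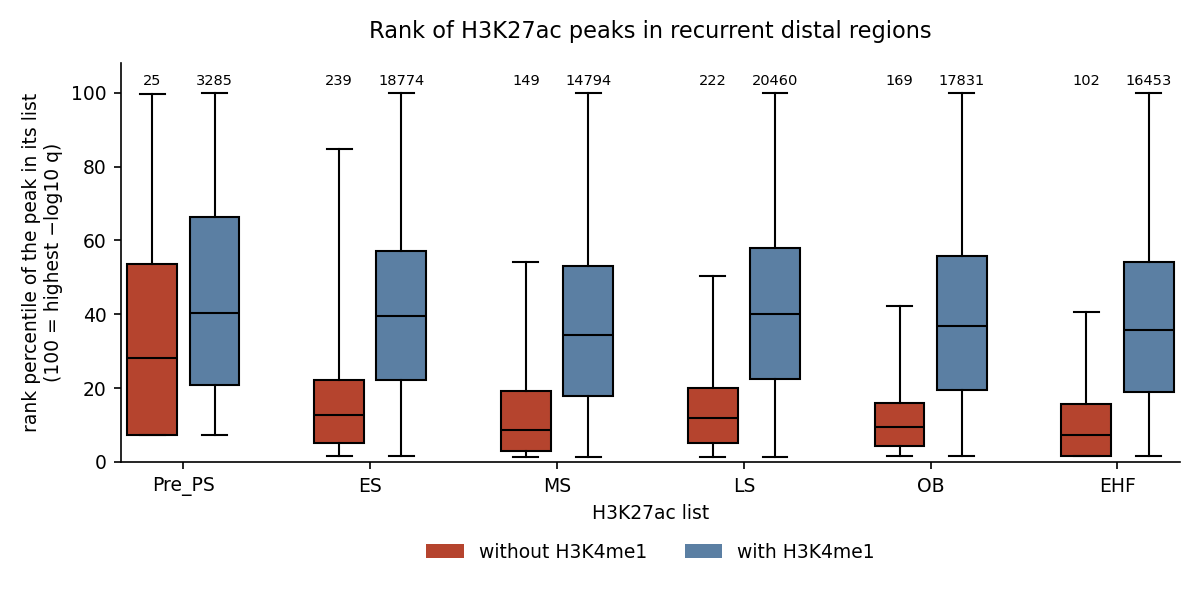
Rank percentile of H3K27ac peaks within each stage's list (y axis, 100 is the highest −log10 q) in regions without H3K4me1, on the left of each pair, and in the other recurrent distal regions, on the right. Lines are medians, boxes quartiles, whiskers the lowest and highest values, and numbers above count regions with a peak; the medians were 12.9 without and 39.5 with H3K4me1 at ES, and 7.37 without and 35.8 with H3K4me1 at EHF.

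The 9 regions in 4 lists, named after their values were seen, had the most repeated signal of the set. The region next to Epm2a, which encodes the glycogen phosphatase laforin, was called at Pre_PS with a fold of 3.68, at ES with 8.80, at MS with 7.22, at LS with 4.88 and at OB with 3.8, and was not called at EHF (chr10:11491795-11493126, 1332 bp wide). Its fold was highest at ES, where it stood at percentile 67.5, and it lay 32.1 kb from the nearest gene end and 37.8 kb from any H3K4me1 peak. The region inside Fscn1, which encodes the actin-bundling protein fascin, was called with folds of 6.74 (MS), 4.92 (LS), 5.92 (OB) and 5.33 (EHF), and was not called at Pre_PS or ES (chr5:142965281-142965777). Its percentile stayed between 32.4 and 48.3 at these 4 stages, and an H3K4me1 peak lay 1.5 kb away.

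Inside Zdhhc20, which encodes an enzyme that attaches palmitate to proteins, the fold was 4.72 (ES), 3.63 (LS), 4.43 (OB) and 5.71 (EHF). This region had its highest percentile, 40.7, in the last stage, and was called at neither Pre_PS nor MS. The region nearest to Pdcd1, which encodes the immune receptor PD-1, lay 98.2 kb from it and had a fold of 3.15 at Pre_PS, 3.72 at ES, 5.49 at MS, 3.96 at LS and 4.18 at OB. The region in Garre1, which encodes a Rac1 effector, had a fold of 3.82 at ES, 4.27 at MS, 4.66 at LS and 4.35 at OB, and a second region without H3K4me1 in the same gene (chr7:34245132-34245480) was called at ES, LS and OB. The regions near Lrrc1, Raver1, Arhgap11a and Cry2, a clock repressor, were weaker, with percentiles of at most 25.7 at any stage.

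**Figure D3:**
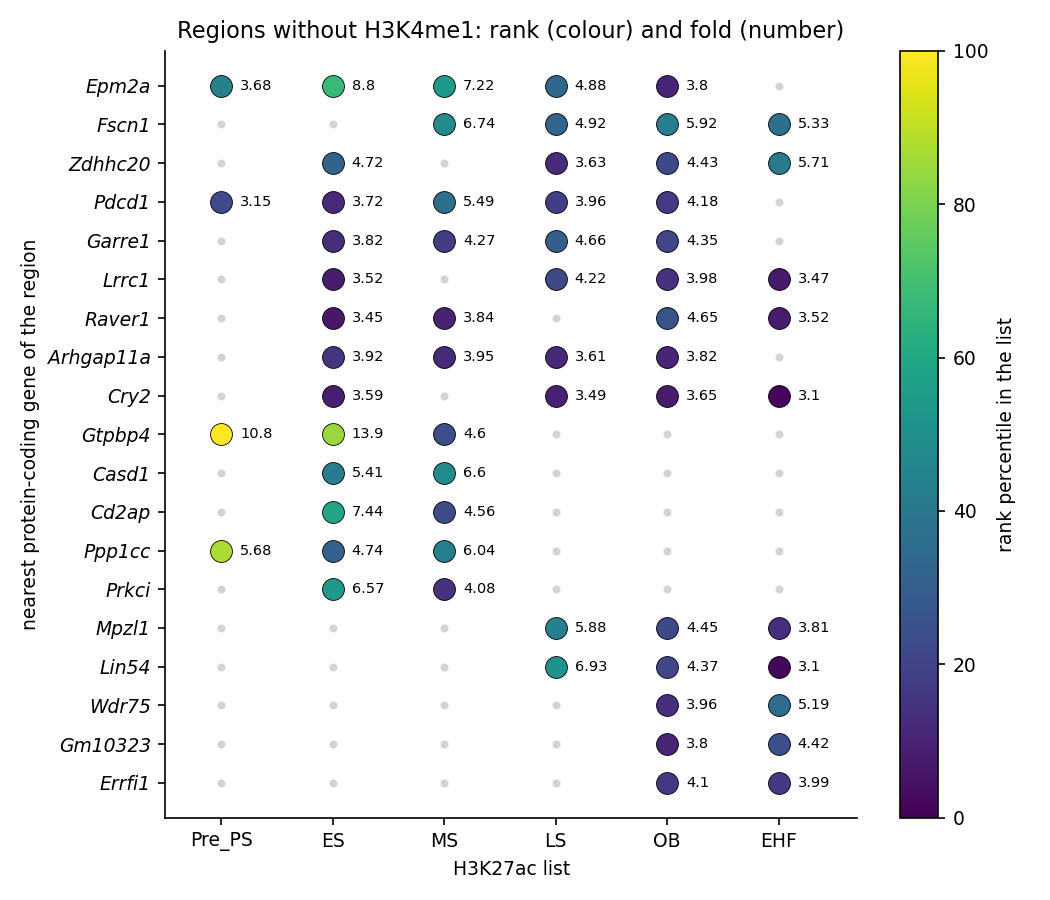
Rank percentile within the list (colour) and fold as deposited (number beside the point) of H3K27ac at each stage (x axis) for named regions without H3K4me1 (y axis, by nearest gene), where a small grey dot means that no peak was called. The region at Gtpbp4 reached 10.8 at Pre_PS and 13.9 at ES, and the region at Fscn1 stayed between 4.92 and 6.74 from MS to EHF.

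Regions present at ES and MS but at neither OB nor EHF, called early-only, were a larger share of the regions without H3K4me1. They were 70 of the 406 regions without H3K4me1, or 17.2% (13.9% to 21.2%), against 1042 of 23511 others, or 4.43%, with 4.65% of all recurrent distal regions early-only. Regions present at OB and EHF but at neither ES nor MS, called late-only, were 20 of 406, or 4.93%, against 1084 others, or 4.61%, with 4.62% of all recurrent distal regions late-only. Held to 2 lists, early-only regions were 60 of 346 (17.3%) without and 464 of 5525 (8.40%) with H3K4me1, where the background was 8.93%. Late-only regions in 2 lists were 16 of 346 (4.62%) without and 339 of 5525 (6.14%) with H3K4me1, where the background was 6.05%. Without the H3K4me1 library of ES the early-only count was 115, and without that of OB the late-only count was 42. Since H3K27ac at these stages was part of the choice, nothing is read from these shares beyond their sizes. Taken by pairs of stages, the share of 2-list regions without H3K4me1 was highest for ES with MS, at 60 of 524 or 11.5% (9.0% to 14.5%), and lowest for ES with EHF, at 16 of 406 or 3.94%. ES and MS also had the H3K4me1 libraries with the lowest backgrounds after Pre_PS, 0.185 and 0.164, and the part of this in the result was not tested.

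**Figure D4:**
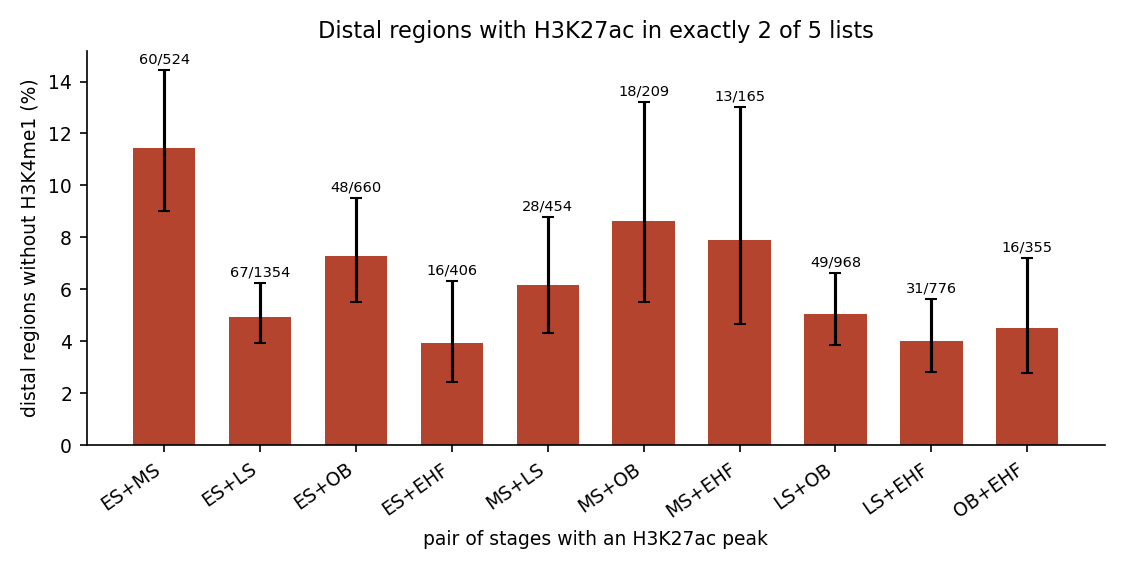
Share of distal H3K27ac regions called in exactly 2 lists that had no H3K4me1 (percent, with 95% Wilson intervals), by the pair of stages. ES with MS stood at 11.5% and the other 9 pairs between 3.94% and 8.61%.

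The 5 early-only regions with the highest mean ranks included the strongest region of the whole set. The region next to Gtpbp4, which encodes a GTPase of ribosome assembly, had a fold of 10.8 at Pre_PS, 13.9 at ES and 4.60 at MS, and was not called at LS, OB or EHF (chr13:9011688-9012186, 499 bp). It stood at percentile 99.7 of the Pre_PS list, 84.7 of the ES list and 23.8 of the MS list, and an H3K4me1 peak was 15.0 kb away. The region nearest to Ppp1cc, which encodes a catalytic subunit of protein phosphatase 1, had a fold of 5.68 at Pre_PS, 4.74 at ES and 6.04 at MS, and was the widest of the set at 1992 bp (chr5:122178298-122180289). Inside Casd1, which encodes a sialic acid acetyltransferase, the fold was 5.41 at ES and 6.60 at MS. Inside Cd2ap, which encodes an adaptor between membrane receptors and actin, it was 7.44 at ES and 4.56 at MS, and the nearest H3K4me1 peak was 118 kb away. Near Prkci, which encodes an atypical protein kinase C of cell polarity, it was 6.57 at ES and 4.08 at MS.

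The 5 late-only regions with the highest mean ranks were lower. The region inside Lin54, which encodes the DNA-binding subunit of the DREAM cell-cycle complex, had a fold of 6.93 at LS, 4.37 at OB and 3.10 at EHF. Inside Mpzl1, which encodes a membrane glycoprotein, the fold was 5.88 at LS, 4.45 at OB and 3.81 at EHF. In both regions the fold and the percentile (50.5 at Lin54, 43.2 at Mpzl1) were highest at LS. LS was also the H3K27ac library with the highest background, and the part of depth was not tested. The region nearest to Wdr75, which encodes a factor of ribosomal RNA processing, had a fold of 3.96 at OB and 5.19 at EHF. Those nearest to Gm10323 and to Errfi1, an inhibitor of the EGF receptor, stayed at or below 4.42 at both stages.

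The Pre_PS library of H3K27ac, which took no part in choosing the regions and had the lowest background of the 6 (0.0499), gave an order that depended on which regions were compared. A Pre_PS peak of H3K27ac overlapped 25 of 406 regions without H3K4me1, or 6.16% (4.21% to 8.93%), and 3285 of the 23511 others, or 14.0%, where 13.8% of all recurrent distal regions had one. Held to regions in 2 lists, the order turned: 21 of 346 regions without H3K4me1 had a Pre_PS peak, or 6.07% (4.0% to 9.10%), against 150 of 5525 with H3K4me1, or 2.71% (2.32% to 3.18%), where the background was 2.91%. This difference of 3.35 percentage points (1.24 to 6.41) lay in the regions called at both ES and MS. Of the 2-list regions called at ES and MS, 15 of 60 without H3K4me1 had a Pre_PS peak, or 25.0% (15.8% to 37.2%), against 34 of 464 with H3K4me1, or 7.33% (5.29% to 10.1%). In all other pairs of stages together, 6 of 286 without H3K4me1 had one, or 2.10% (0.965% to 4.50%), against 116 of 5061 with H3K4me1, or 2.29% (1.91% to 2.74%). Without the H3K27ac library of MS the difference turned to -0.76 percentage points, and without that of ES it was 0.13, while without that of LS it was 6.73. The part of depth in this difference was not tested.

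The share with a Pre_PS peak was higher in the wider regions of both groups. Within 2-list regions up to 500 bp wide, 2.54% without (5 of 197, 1.09% to 5.80%) and 1.46% with H3K4me1 (39 of 2664, 1.07% to 1.99%) had one. From 501 to 1000 bp the shares were 7.26% without (9 of 124, 3.87% to 13.2%) and 3.15% with H3K4me1 (75 of 2383, 2.52% to 3.93%). Above 1000 bp they were 28.0% without (7 of 25, 14.3% to 47.6%) and 7.53% with H3K4me1 (36 of 478, 5.49% to 10.3%). The order was the same in all 3 width classes. The intervals overlapped up to 1000 bp, cover counting error only and are no test between the groups. In the class above 1000 bp the group without H3K4me1 held only 25 regions. In that class 15 of 25 regions without H3K4me1 (60.0%) and 61 of 478 with it (12.8%) were early-only.

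**Figure D5:**
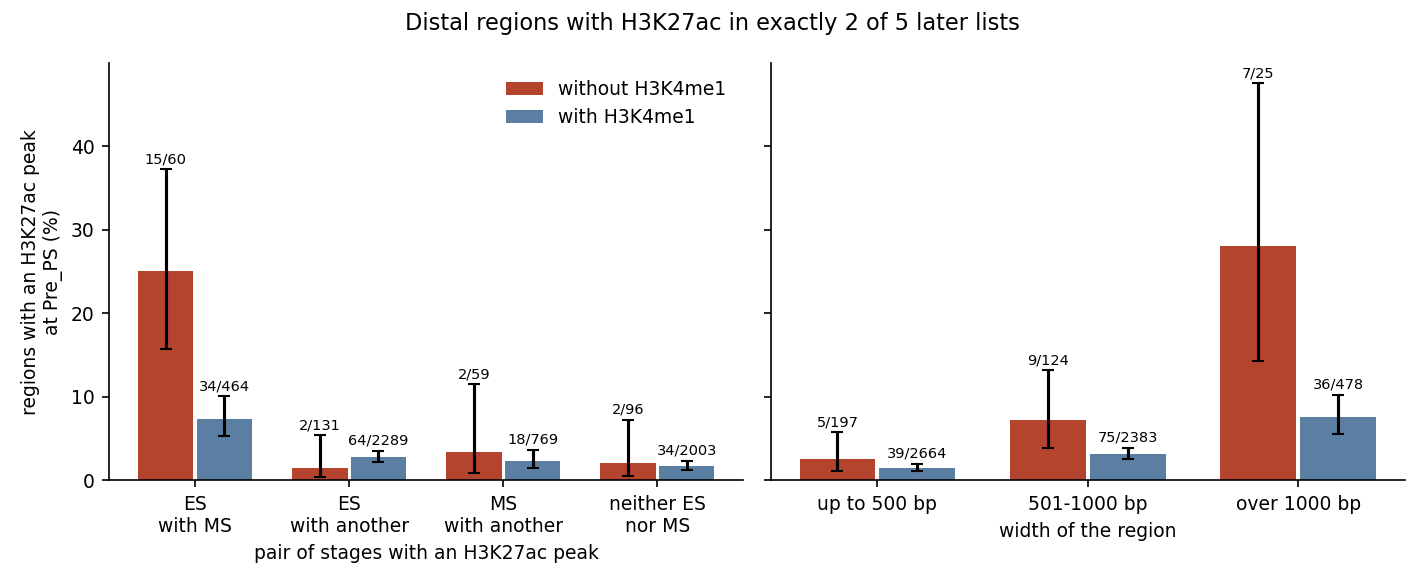
Share of H3K27ac regions in exactly 2 lists with a Pre_PS H3K27ac peak (y axis, percent, with 95% Wilson intervals and counts above), by pair of stages and by width, for regions without H3K4me1 on the left of each pair of bars and regions with it on the right. For ES with MS the share was 25.0% without and 7.33% with H3K4me1, and above 1000 bp it was 28.0% without and 7.53% with H3K4me1.

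Among the regions without H3K4me1 that had a Pre_PS peak, 17 of 25 were early-only (68.0%), against 53 of the 381 without a Pre_PS peak (13.9%). They had a median width of 802 bp, against 483 bp in those without one, and 6 of the 25 (24.0%) lay inside a protein-coding gene, against 183 of 381 (48.0%). The directions were the same in 2-list regions with H3K4me1. Among these, 22.7% with and 8.0% without a Pre_PS peak were early-only. Their median widths were 617.5 bp with and 504 bp without a Pre_PS peak, and 36.7% and 52.7% lay inside a protein-coding gene. After Gtpbp4 and Ppp1cc, the highest Pre_PS ranks belonged to the regions nearest to Alkbh8, which encodes a tRNA-modifying enzyme, with a fold of 5.06 at Pre_PS, 3.38 at ES and 5.80 at MS, and to Cemip2, a hyaluronidase of the cell surface, with 4.97 at Pre_PS, 3.17 at ES and 6.25 at MS. Of the stages called, both had their lowest fold and percentile at ES, at percentiles 5.05 and 1.56, and neither was called after MS. The ES value of the region nearest to Cemip2 was the lowest of that list. An H3K4me1 peak lay only 372 bp from this region, against 38.7 kb from the one nearest to Alkbh8. The regions lay 70.4 kb from Cemip2 and 76.0 kb from Alkbh8. The libraries differed in depth, and the part of depth in these values was not tested. The region nearest to Pou3f2, a POU factor of neural cells, had a fold of 4.23 at Pre_PS, 3.92 at ES and 4.08 at MS, 53.6 kb from the gene. At the other end, 7 of the 25 (28.0%) sat at the lowest value of the Pre_PS list, as did 14.4% of all peaks in that list. In 2-list regions with a Pre_PS peak the share was 33.3% without and 37.3% with H3K4me1.

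The ends of protein-coding genes were farther from the regions without H3K4me1, although 46.6% of them lay inside such a gene. Their median width was 489 bp (quartiles 422 to 609 bp), against 739 bp in the other recurrent distal regions. Within 2-list regions the medians were close, at 479.5 bp without and 506 bp with H3K4me1. Peaks of different lists in a region need not cover the same bases. Bases covered by 2 or more lists made up over 50 percent of the width in 74.9% of regions without and 89.6% with H3K4me1. In 2-list regions these shares were 72.3% without and 75.9% with H3K4me1. The share without H3K4me1 was 8.01% of recurrent distal regions up to 400 bp wide, 0.554% of those from 1001 to 2000 bp and 0 of the 2492 above 2000 bp (upper limit 0.154%). In 2-list regions it varied less with width, from 8.65% up to 400 bp to 5.33% from 1001 to 2000 bp. The nearest protein-coding gene end lay at a median of 36.1 kb without and 15.6 kb with H3K4me1, and at 37.5 kb without and 24.3 kb with H3K4me1 in 2-list regions. Over 100 kb from any gene end lay 125 of the 406 (30.8%) without and 12.8% of those with H3K4me1, and in 2-list regions 32.4% without and 20.4% with H3K4me1. Inside a protein-coding gene lay 189 of the 406 without and 60.7% of those with H3K4me1, and in 2-list regions 46.8% without and 52.2% with H3K4me1. For the 2755 distal regions called in 1 list without H3K4me1, outside the set, the median distance to a gene end was 28.2 kb. Of them, 26.3% lay over 100 kb from any gene end and 47.3% inside a protein-coding gene.

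Other H3K27ac regions were farther away as well. Another H3K27ac region lay within 5 kb of 90 of the 406 (22.2%), against 44.6% of the other recurrent distal regions, and in 2-list regions the shares were 22.3% without and 32.4% with H3K4me1. In the distal regions of 1 list without H3K4me1 the share was 26.8%, and their median gap to an H3K4me1 peak was 8.73 kb. For the 406 the nearest H3K4me1 peak was at a median of 13.4 kb, with quartiles of 3.72 and 39.9 kb. It was within 1 kb of 18 of the 406 (4.43%), from 1 to 5 kb of 115 (28.3%), and over 100 kb from 28 (6.90%). The farthest was inside Tenm1, a teneurin of neuronal wiring, 265 kb from any H3K4me1 peak, with a fold of 2.87 at Pre_PS, 3.41 at ES and 3.41 at MS (chrX:42761075-42761549). Next came the regions inside Ralyl (221 kb from H3K4me1) and nearest to Ptbp2, a splicing regulator of neurons (208 kb). Then came those nearest to Gm4070 (207 kb) and to Pcdh18, a protocadherin (201 kb). From the nearest end of the named gene, those of Ptbp2, Gm4070 and Pcdh18 lay 611, 91.3 and 296 kb away, in that order. Of all these regions far from H3K4me1, the one nearest to Gm4070 had the highest fold, 6.01 at MS (percentile 42.2). The region nearest to Pcdh18 had a fold of 5.64 at ES (percentile 44.2). By chromosome, the share without H3K4me1 was highest on X, at 19 of 480 recurrent distal regions or 3.96% (2.55% to 6.10%), and lowest on chromosome 11, at 17 of 1869 or 0.910%.

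A smaller share of the regions without H3K4me1 lay at ends of non-coding genes and pseudogenes. Within 1 kb of such an end lay 21 of the 406 (5.17%), against 12% of the other recurrent distal regions, and in 2-list regions 17 of 346 (4.91%) without and 473 of 5525 (8.56%) with H3K4me1. In the distal regions of 1 list without H3K4me1 the share was 6.82%, and 3.19% for lncRNA genes alone. For lncRNA genes the shares were 5 of 406 (1.23%) without and 7.45% with H3K4me1, and in 2-list regions 1.16% without and 4.29% with H3K4me1. For pseudogenes the shares were 12 of 406 (2.96%) without and 3.56% with H3K4me1, and in 2-list regions 2.60% without and 3.42% with H3K4me1. For small RNA genes they were 4 of 406 (0.985%) without and 1.45% with H3K4me1, and in 2-list regions the order was the other way, at 4 of 346 (1.16%) without and 50 of 5525 (0.905%) with H3K4me1. The region 3 bp from Rnu1b1, a gene of the spliceosomal U1 RNA, had a fold of 3.01 at LS and 5.04 at EHF (chr3:96360121-96360589). U1 genes and pseudogenes can have near-identical copies elsewhere, so the placing of reads there is uncertain. This applies also to the regions that overlapped an end of the pseudogene Gm6540 near Zfp942, with a fold of 4.41 at ES and 5.24 at MS, and of Gm7079 near Suv39h1, with a fold of 4.20 at ES, 3.97 at LS and 4.13 at OB. It applies as well to regions at 0 bp from the pseudogenes Gm18025, inside Hdac9, and Gm7727, near Fbxo33. Their highest folds were 4.38 at LS and 4.87 at ES.

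Near the listed genes, which cover gastrulation, housekeeping and adult tissues, the share without H3K4me1 was close to that near all genes. Of 397 recurrent distal regions within 100 kb of 188 listed genes, 5 lacked H3K4me1 (1.26%), against 281 of 20794 for all protein-coding genes (1.35%). The count was 0 of 48 regions for the epiblast and pluripotency genes, 0 of 102 for the lateral plate, cardiac and blood genes, 0 of 95 for the neural and surface ectoderm genes, and 0 of 33 each for the Hox and the trophoblast genes. Counts of 0 allow shares of up to 6.25%, 2.94%, 3.16% and 9.09% in these lists in that order (9.09% for both of the last), and each limit is above the 1.35% of all protein-coding genes. These limits are 3 counts over the number of regions, not Wilson limits. With the endoderm and node genes it was 2 of 32, at Hhex, a homeobox factor of anterior endoderm, with a fold of 5.62 at ES and 3.10 at EHF, and inside Hnf4a, a nuclear receptor of visceral endoderm, with 3.17 at ES and 3.73 at OB. With the streak and early mesoderm genes it was 1 of 40, at Lhx1, a LIM homeobox factor of the node and anterior streak, with 4.30 at ES and 4.20 at LS. The others were at Ywhaz, among 16 regions of the housekeeping genes, and inside Myh7, a cardiac myosin, among 19 regions of the adult tissue genes. The values at Myh7, 3.30 at MS and 3.10 at EHF, were the lowest folds of their lists, as were the EHF value at Hhex and the ES value at Hnf4a.

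The 406 regions had 389 different nearest genes. There were 14 genes nearest to more than 1 region, and 3 of them, Cdc73, Cdh12 and Nxph1, were nearest to 3. These were 3 of 7 recurrent distal regions for Cdc73, a subunit of the PAF1 complex of transcription elongation, 3 of 4 for Cdh12, a cadherin, and 3 of 8 for Nxph1, a ligand of neurexins. All 9 lay far from the gene, at 223 to 442 kb for Cdc73, 154 to 555 kb for Cdh12 and 477 to 1064 kb for Nxph1, so the nearest gene is only a name for their place. The other 11 genes, with 2 regions each, were Cntnap5b, Dcun1d4, Epha6, Gabrg1, Garre1, Igfbp7, Pcdh17, Ralyl, Tenm4, Zfp36l2 and Zfp64. At Dcun1d4, Garre1 and Zfp64 both regions lay within 100 kb of the gene's nearest end, at 3.50 and 30.0 kb, 5.42 and 8.42 kb, and 8.96 and 15.8 kb.

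At the thresholds of the choice, the regions without H3K4me1 that lay closest to a gene end were at Prr14 (1039 bp), Mkrn1 (1090 bp) and Rab3gap1 (1093 bp), and the closest left out for lying within 1 kb were at Zfp33b (980 bp), Zfp820 (703 bp) and Bspry (639 bp). The smallest gaps to an H3K4me1 peak were 75 bp at Ahnak2, 78 bp at Krt14 and 102 bp at Mef2c. The smallest overlaps that left a region out were 37 bp at Cyp3a16, 45 bp at Sun5 and 68 bp at Grid1. Near gene ends, where H3K4me1 flanks promoters, 25 of 14407 recurrent H3K27ac regions (0.174%) had no H3K4me1. Among the recurrent distal regions with H3K4me1, 986 had it in 1 list and 6404 in all 6. Of the 986, 276 had it only at ES, 270 only at OB and 198 only at LS.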

How the data were processed

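The 12 deposited lists hold broad peaks of H3K27ac and H3K4me1, 1 library per mark at each of 6 stages. Bowtie2, Picard, MACS2 and deepTools are named with the mm10 build, per the submitters' processing notes, without versions or settings, and the sources used here do not give cell numbers. At the weakest peaks the deposited fold was the pileup plus 1 over the local background plus 1. The authors' peak caller wrote the deposited −log10 p and −log10 q, of which −log10 q served to rank peaks inside each list. Their deposited score column was left aside. Total fragments are not given, so depth was read from the fold and −log10 p of the weakest peaks, as the local background that a whole pileup up to 20 gives within 0.001. How depth affects the absence of a peak was not tested.

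Peaks on chromosomes 1 to 19 and X were merged where they overlapped or touched, and genes came from RefSeq GRCm38. Shares are given with 95% Wilson intervals, and the limits of counts of 0 in the gene lists are 3 counts over the number of regions. Code was run with Python 3.11.15, numpy 2.4.6, pandas 2.3.3 and scipy 1.17.1, and was tested on simulated data. The regions and gene lists were chosen with earlier results of these data known. Named regions were the 10 widest, the 10 farthest from H3K4me1, the 5 early-only and 5 late-only ones with the highest mean ranks, the 10 highest near non-coding ends, the 10 highest near listed genes, and 3 on each side of each threshold; a part for regions in all 5 lists found none. Regions in 4 lists, those ranked highest overall or at Pre_PS, the regions shown with their sequences and the genes with several regions were named after their values were seen. Base composition and motifs of whole regions were not analysed here.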

Additional observations from a re-analysis of the deposited data

How the results depend on the processing

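No paired analysis was possible because each stage and mark had 1 library. Leaving out 1 library moved the count between 216 and 682, by over 1.5 times without the H3K27ac library of ES (216) or LS (230) and without the H3K4me1 library of ES (682) or OB (676). The share of recurrent distal regions then ran from 1.02% to 2.85%, and the share with a Pre_PS peak from 2.78% to 10.0%. The share present in all H3K27ac lists used ran from 0% to 1.21%. The highest of these came without H3K27ac of EHF, so it counts regions in all 4 lists left, not 5. The median width ran from 467 to 500 bp, the share inside genes from 42.6% to 50%, the share near non-coding ends from 4.78% to 6.57%, the median rank percentile from 11.2 to 12.8, the early-only count from 70 to 115 and the late-only count from 20 to 42. In the upper 50 percent of each H3K27ac list 1 region was left (0.0149%). With 30072 peaks per list there were 87 (0.471%), with 9.20% at Pre_PS, a width of 504 bp, 51.7% inside genes, a rank of 20.8, 31 early-only and 2 late-only regions. With 3 or more lists there were 60 (0.332%), with a width of 513 bp, a rank of 13.2, 10 early-only and 4 late-only. With 4 or more, chosen after seeing the data, there were 9 (0.0658%), and with 5 there were 0 (0%). Gene ends over 5 kb away gave a share of 1.93%, and no H3K4me1 within 5 kb gave 1.14%, a width of 501 bp and 34.1% inside genes. Without peaks at the lowest value, the share was 2.49% for H3K4me1 lists and 1.24%, with a rank of 14.1, for H3K27ac lists. The difference in the Pre_PS share of 2-list regions, computed after seeing the data, ran from -0.76 (without H3K27ac of MS, where its sign turned) to 6.73 percentage points (without H3K27ac of LS) with 1 library left out. Of 115 values under 13 other settings, 88 stayed near the reported one. The cause of these moves was not tested.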
